A study of Homo sapiens with 11 samples.

Results

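The genes described here encode the heterogeneous nuclear ribonucleoproteins (hnRNPs) and the serine/arginine-rich (SR) splicing factors, measured in 2 human pancreatic cancer cell lines with and without small interfering RNA (siRNA) against MYEOV, the myeloma overexpressed gene. Members were all protein-coding genes of the GENCODE 29 annotation whose symbol starts with HNRNP, or with SRSF and a digit, without a hyphen, and that reached 1 CPM (counts scaled to library size) in at least 2 libraries. Of 38 genes with such names, 34 met the rule, 22 hnRNP and 12 SR genes, among 58735 gene identifiers in the count tables and 15748 at that level. The 4 left out, HNRNPCL1, HNRNPCL2, HNRNPCL3 and HNRNPCL4, had 0 counts in every library.

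Poly(A) RNA was sequenced from 11 libraries. AsPC-1 gave 2 controls and 3 libraries from cells given MYEOV siRNA, and PANC-1 gave 3 and 3. AsPC-1 and PANC-1 are established lines of pancreatic ductal carcinoma, and the labels give no other genetic change or treatment. RNA of the siRNA libraries was taken 48 hours after transfection. The titles and descriptions call the controls wild type and untreated, whereas the protocol names a negative-control siRNA, so MYEOV siRNA and transfection itself cannot be told apart. Because 2 different MYEOV siRNAs are named in the protocol, the numbers 1 to 3 of the siRNA libraries could stand for siRNAs or for replicates. AsPC-1 was grown in RPMI 1640 and PANC-1 in DMEM, so line and medium cannot be told apart. Separate cultures are not mentioned in the labels, and p-values therefore measure only how far these libraries spread, which may be technical.

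hnRNPs coat nascent transcripts and bind them through RNA recognition motifs, KH domains or arginine- and glycine-rich stretches. Many of them repress the use of nearby splice sites, and several also act in mRNA export, stability and translation. SR proteins carry 1 or more RNA recognition motifs and a domain of repeated arginine and serine residues that is phosphorylated by SRPK and CLK kinases, and they often promote exon inclusion by recruiting the U1 snRNP and U2AF. The levels of many of these factors are held in check by splicing of their own transcripts, through exons that expose the mRNA to nonsense-mediated decay.

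Libraries held 12113093 to 15066456 counts, with 22050 to 24025 genes detected. Mitochondrial transcripts took 13.2% to 13.9% of counts in AsPC-1 and 6.20% to 6.82% in PANC-1. MYEOV, the target, fell in both lines. Mean levels in AsPC-1 were 130.4 CPM in controls and 47.3 CPM in siRNA libraries (log2 fold change -1.48, SE 0.06), and 69.3 and 37.8 CPM in PANC-1 (-0.88, SE 0.07). All 8 ductal carcinoma markers on the list used were above 1 CPM in both lines, with a summed level of 18190 to 19070 CPM in AsPC-1. In PANC-1 their sum was 2594 to 2807 CPM in the controls and 2294 to 2302 CPM in the siRNA libraries. Of 8 leukocyte markers CD3E was at 0 in every library, and the list summed to 30.9 to 33.01 CPM in AsPC-1, led by LYZ, and 1.20 to 1.956 CPM in PANC-1, where LYZ was at 0. Of 8 fibroblast markers 2 or 3 reached 1 CPM. Their sum was 299 to 312 CPM in AsPC-1 controls and 108 to 111 CPM in its siRNA libraries, led by LUM. In PANC-1 it was 34.1 to 48.9 CPM, led by COL1A1, with DCN and FAP at 0. Of 7 endothelial markers ENG alone reached 1 CPM. The part of these lists in the results was not tested.

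The deposited counts are of genes, so the sequences shown are those of a 7-base word, CTCATGT, in the annotated 3′ untranslated regions (UTRs) of members. The word had been picked out in earlier work on these same libraries as frequent in transcripts lowered by the siRNA, so its frequency there is a description. It was searched on the sense strand, as was its 6-base core TCATGT, which lies inside it. Of 11938 genes tested in AsPC-1 with an annotated 3′ UTR, 13.6% carried the word, and 35.9% of carriers were called lower against 14.9% of the others. In PANC-1, 13.8% of 12509 such genes carried it, and 19.1% of carriers were called lower against 3.33% of the others. Among members tested with an annotated 3′ UTR, 7 of 32 (21.9%) carried it in AsPC-1 and 7 of 33 (21.2%) in PANC-1. None of these shares was adjusted for the length of the 3′ UTR. The longest annotated 3′ UTR was, for example, 260 bases in HNRNPM and 7498 bases in HNRNPA0.

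The windows below are 27 bases long in the sense direction, with the word in capitals, taken from GENCODE 29 transcripts on GRCh38. They are shown because carriers differed in direction and in how many of their annotated transcripts hold the word. In HNRNPA1 (chr12:54284674-54284700, plus strand) and HNRNPF (chr10:43386242-43386268, minus strand) it lay in 4 of 4 and 5 of 5 coding transcripts with a 3′ UTR. HNRNPA1L2 (chr13:52643585-52643611, plus strand) had the same 27 bases as HNRNPA1, and HNRNPLL (chr2:38564078-38564104, minus strand) held the word in 6 of 7 transcripts. In HNRNPA2B1 (chr7:26174485-26174511, minus strand) it lay in 1 of 4 transcripts, in HNRNPA3 (chr2:177223499-177223525, plus strand) in 1 of 3, and in HNRNPC at a pair of places (chr14:21209475-21209501 and chr14:21209659-21209685, minus strand) in 1 of 16.
HNRNPA1 and HNRNPA1L2: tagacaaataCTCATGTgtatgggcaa
HNRNPF: agaaatatttCTCATGTttgttcattc
HNRNPLL: aatggttgatCTCATGTtgccttgctt
HNRNPA2B1: tacaaccctgCTCATGTgctcaagata
HNRNPA3: tgaatttataCTCATGTcctaaaggag
HNRNPC, first window: ctgatgtgagCTCATGTtacacagact
HNRNPC, second window: acaggcaaaaCTCATGTcttatttatg

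Of these 7 carriers HNRNPA1 and HNRNPF were lower in siRNA libraries of both lines, HNRNPC was lower in AsPC-1, and HNRNPA3 was higher in both. HNRNPA2B1, HNRNPA1L2 and HNRNPLL were not called in either. The 6-base core was present in 18 of 32 members (56.2%) against 40.6% of all tested genes in AsPC-1, also without allowance for 3′ UTR length. The remaining members called lower carried no copy of the 7-base word in an annotated 3′ UTR.

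The comparison of siRNA with control asked which of these genes moved with MYEOV siRNA in each line. In AsPC-1, 22 of 33 tested members were called, 9 higher and 13 lower, at an adjusted p under 0.05 in the edgeR quasi-likelihood test with Benjamini-Hochberg adjustment over all genes. Across all 14304 genes tested 32.9% were called, 16.6% higher and 16.3% lower. Of the 22 hnRNP genes 7 rose and 7 fell, and of the 11 SR genes tested 2 rose and 6 fell. SRSF12, with 0 to 2 counts per AsPC-1 library, was too low to be tested. The median log2 fold change (log2 change below) was -0.07 for members and -0.00 for all genes. In PANC-1, 9 of 34 members were called, 3 higher and 6 lower, against 9.08% of 14929 genes tested, 4.16% higher and 4.92% lower. Their median was -0.03, beside -0.00 over all genes. The AsPC-1 member count fell to 16 with DESeq2 and to 13 with all groups in 1 fit. Over all genes the count fell from 4709 to 3170 and 3503 in the same runs. Leaving out either AsPC-1 control leaves 1 control library, and member calls were lost in both of those fits.

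All 9 members called in PANC-1 were called in the same direction in AsPC-1. HNRNPA3, HNRNPH3 and SRSF9 were higher, and HNRNPA1, HNRNPA1P48, HNRNPF, HNRNPR, SRSF2 and SRSF6 were lower. These were 9 of the 33 members tested in both lines. Of 12893 genes tested in both lines, 359 were called higher and 512 lower in both, 6.76%. Over all genes 1356 were called in PANC-1, so most PANC-1 calls were shared with AsPC-1 there too. Over the 33 members tested in both lines the log2 changes had a Pearson correlation of 0.94 and a Spearman correlation of 0.79. Over all genes tested in both these were 0.44 and 0.43. The sign was the same in 26 of the 33 members and in 8463 of the 12893 genes. The Pearson value of members includes HNRNPA1, HNRNPA1P48 and HNRNPF, with log2 changes of -0.87 to -0.53, and was not computed without them. The points of each line share its libraries and scaling factors.

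**Figure D1:**
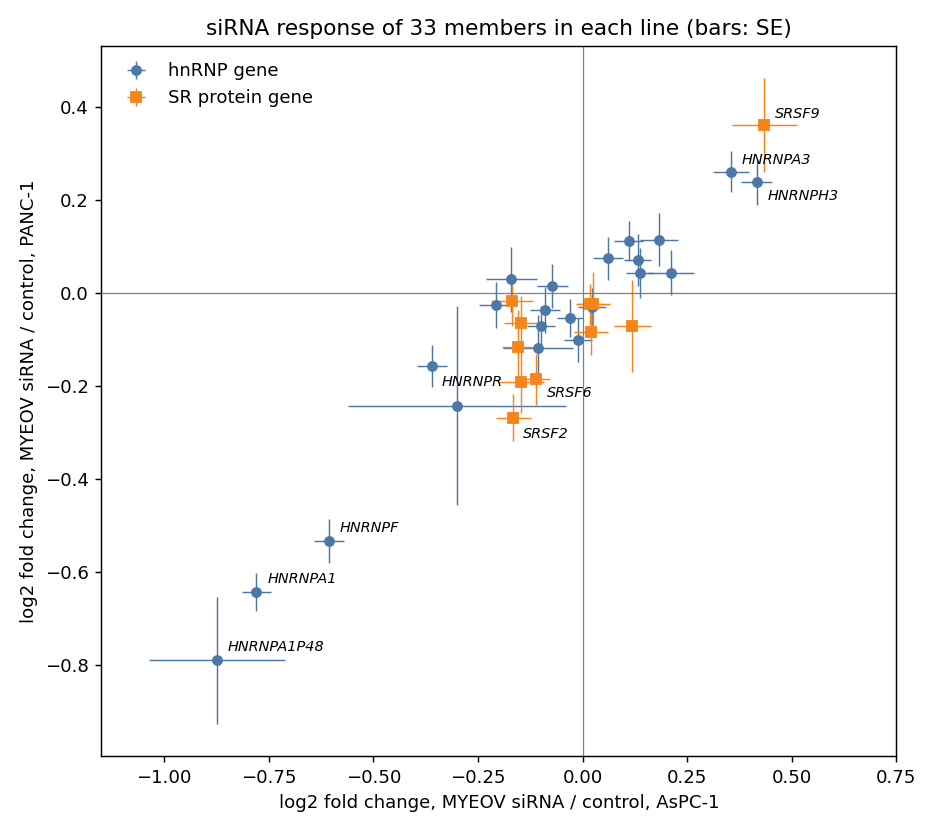
Log2 fold change of siRNA against control in AsPC-1 (horizontal axis) and PANC-1 (vertical axis) for the 33 members tested in both lines, with circles for hnRNP genes, squares for SR genes and bars for the standard error. The 9 named genes were called in both lines. HNRNPA1P48, HNRNPA1 and HNRNPF lie at the lower left, below -0.5 on both axes, and SRSF9, HNRNPA3 and HNRNPH3 at the upper right.

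HNRNPA1 (ENSG00000135486, chromosome 12, 54280193 to 54287088, plus strand, GRCh38) encodes a shuttling protein that binds splicing silencers and is among the most abundant nuclear RNA-binding proteins. CPM values are scaled with TMM factors over all 11 libraries. Its level was 1277 and 1262 CPM in the AsPC-1 controls and 711, 750.4 and 779.6 CPM in the siRNA libraries. The PANC-1 values were 942, 915 and 924 CPM in the controls and 571, 606 and 604 CPM in the siRNA libraries. Every siRNA library lay far below every control of its line, with no overlap. The siRNA mean was 58.9% of control in AsPC-1 (1269 ± 10.3 to 747 ± 34.4 CPM, SD, n = 2 and 3; log2 change -0.78, SE 0.03; edgeR adjusted p = 3.20e-15). In PANC-1 it was 64.0% (927 ± 13.7 to 594 ± 19.6 CPM, SD, n = 3 and 3; log2 change -0.64, SE 0.04; edgeR adjusted p = 8.17e-07). These calls held in each alternative fit.

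HNRNPA1P48 (ENSG00000224578, chromosome 16, 51553436 to 51647132, plus strand) is annotated as a protein-coding retrogene, 99.3% identical to an HNRNPA1 transcript over 1025 bases. Reads of such copies cannot be told apart with certainty, so its values may hold HNRNPA1 reads. AsPC-1 controls had 121 and 82 counts and siRNA libraries 56, 52 and 57. In PANC-1 it had 109, 90 and 115 against 61, 62 and 52. No siRNA library reached a control in counts or CPM. Its log2 change was -0.87 in AsPC-1 (SE 0.16; edgeR adjusted p = 1.37e-04) and -0.79 in PANC-1 (SE 0.14; edgeR adjusted p = 0.00283). In its coding transcript a copy of CTCATGT lay outside the coding sequence, in a window that no HNRNPA1 coding transcript holds. Another annotated transcript, not coding and 99.2% identical to HNRNPA1 over 1361 bases, also held 1 copy. The window of that copy was not compared.

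HNRNPA1L2, an intronless relative 98.4% identical to HNRNPA1 over 1350 bases, had 22 to 39 counts per library. Its log2 changes were -0.30 (SE 0.26) in AsPC-1 and -0.24 (SE 0.21) in PANC-1, and neither was called (edgeR adjusted p = 0.415 and 0.552). The 74 annotated HNRNPA1 pseudogenes, of which 30 had counts, were summed. Their sum was 65.9% of control in AsPC-1 (18.5 ± 0.98 to 12.2 ± 0.18 CPM, SD, n = 2 and 3) and 66.45% in PANC-1 (15.65 ± 0.12 to 10.4 ± 1.1 CPM, SD, n = 3 and 3), with no test. That sum was small beside the CPM of HNRNPA1 itself.

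HNRNPA3 (ENSG00000170144, chromosome 2, 177212563 to 177223958, plus strand), a close relative of A1 that takes part in mRNA trafficking, moved the other way. It had 522 and 506 CPM in the AsPC-1 controls and 621, 652 and 719 CPM in the siRNA libraries. In PANC-1 it had 585, 622 and 569 CPM in the controls and 709, 696 and 723 CPM in the siRNA libraries. Every siRNA library was above every control of its line. The log2 change was 0.36 in AsPC-1 (SE 0.04; edgeR adjusted p = 4.65e-07) and 0.26 in PANC-1 (SE 0.04; edgeR adjusted p = 0.00272). Its 16 pseudogenes summed to 130.8% of control in AsPC-1 and 122.6% in PANC-1.

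HNRNPA2B1, which reads RNA marks and sorts RNAs into vesicles, was the most abundant of these genes in CPM and was not called. AsPC-1 libraries had 1397 to 1595 CPM and PANC-1 libraries 1258 to 1454 CPM, with log2 changes of 0.06 (SE 0.04) and 0.07 (SE 0.05). HNRNPA0, which binds AU-rich elements, was 177.5 and 187 CPM in the AsPC-1 controls and 162, 161 and 156 CPM in the siRNA libraries. Its groups did not overlap, and it fell by 0.21 on the log2 scale (SE 0.04; edgeR adjusted p = 2.93e-04). In PANC-1 its groups overlapped, at 225 to 242 CPM in the controls and 224 to 238 CPM in the siRNA libraries (log2 change -0.03, SE 0.05).

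HNRNPAB, a nucleic acid binding relative of the A group, was 328 and 306 CPM in the AsPC-1 controls and 325, 386 and 402 CPM in the siRNA libraries, so the groups overlapped at siRNA replicate 1. It was called higher (log2 change 0.21, SE 0.06; edgeR adjusted p = 0.00442), a call lost with DESeq2 (adjusted p = 0.207) and without control replicate 2 (adjusted p = 0.135). HNRNPD, known as AUF1 and for binding AU-rich mRNAs, was called higher in AsPC-1 by 0.11 (SE 0.04; edgeR adjusted p = 0.0175) and had the same estimate in PANC-1 (0.11, SE 0.04; edgeR adjusted p = 0.132). Its AsPC-1 call was lost without control replicate 1, control replicate 2 or siRNA replicate 3 (edgeR adjusted p = 0.0956, 0.115 and 0.0613). HNRNPDL, its neighbour on chromosome 4, was not called (-0.09, SE 0.04, and -0.04, SE 0.05).

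HNRNPF (ENSG00000169813, chromosome 10, 43385617 to 43409166, minus strand) and HNRNPH1, HNRNPH2 and HNRNPH3 form the F/H group, which binds runs of guanosines. HNRNPF was 457 CPM in both AsPC-1 controls and 289.6, 305 and 315 CPM in the siRNA libraries. PANC-1 controls had 446, 434 and 408 CPM and siRNA libraries 289, 295 and 306 CPM. The groups were far apart in both lines. It fell to 66.4% of control in AsPC-1 (log2 change -0.61, SE 0.04; edgeR adjusted p = 1.62e-12) and to 69.1% in PANC-1 (-0.53, SE 0.05; edgeR adjusted p = 8.55e-06), and held in each alternative fit.

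HNRNPH3 (ENSG00000096746, chromosome 10, 68331174 to 68343191, plus strand) went the other way from HNRNPF. It was 181 and 179 CPM in the AsPC-1 controls and 247.5, 238 and 243 CPM in the siRNA libraries. PANC-1 libraries had 211, 227 and 215 CPM as controls and 252, 254 and 265 CPM with siRNA. No control reached a siRNA library in either line. Its log2 change was 0.42 in AsPC-1 (SE 0.04; edgeR adjusted p = 3.27e-09) and 0.24 in PANC-1 (SE 0.05; edgeR adjusted p = 0.00768). RUFY2, which shares 115 exonic bases with it on the opposite strand, was not called (-0.10 and -0.21).

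HNRNPH1 and HNRNPH2 had smaller rises in AsPC-1, of 0.13 (SE 0.03; edgeR adjusted p = 0.00333) and 0.18 (SE 0.04; edgeR adjusted p = 0.00234), and neither was called in PANC-1 (0.07, SE 0.06, and 0.11, SE 0.06). The HNRNPH1 call was lost in 1 fit over all groups (edgeR adjusted p = 0.0558) and without control replicate 1 (edgeR adjusted p = 0.0528), and that of HNRNPH2 without control replicate 2 (edgeR adjusted p = 0.0603). Within the F/H group 1 gene fell and 3 rose in AsPC-1.

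HNRNPR (ENSG00000125944, chromosome 1, 23303771 to 23344336, minus strand), known for carrying mRNAs in neurons, was 338 and 322 CPM in the AsPC-1 controls and 257, 255 and 268 CPM in the siRNA libraries. The PANC-1 controls had 313, 314 and 294 CPM, and the siRNA libraries 274, 272 and 280.1 CPM. The groups did not overlap in either line, but the gap in PANC-1 was narrow. It fell in AsPC-1 (log2 change -0.36, SE 0.04; edgeR adjusted p = 2.14e-08). The PANC-1 value was close to the threshold (-0.16, SE 0.05; edgeR adjusted p = 0.0468). Of 14 alternatives 11 lost that call, among them leaving out any 1 library, with edgeR adjusted p from 0.0565 to 0.192, and DESeq2 (adjusted p = 0.0541).

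HNRNPC, which binds uridine tracts, was called lower in AsPC-1 by a small amount (644 ± 7.1 to 608 ± 22.0 CPM, SD, n = 2 and 3; log2 change -0.10, SE 0.03; edgeR adjusted p = 0.0255). That call was lost with DESeq2 (adjusted p = 0.0531) and in 1 fit over all groups (edgeR adjusted p = 0.191). It was also lost without control replicate 1 or 2 (edgeR adjusted p = 0.149 and 0.119) and without siRNA replicate 1 or 2 (edgeR adjusted p = 0.107 or 0.0965). HNRNPK, a KH-domain protein that binds cytidine-rich RNA, HNRNPL, which binds CA repeats, its relative HNRNPLL, HNRNPM and the nuclear scaffold protein HNRNPU were not called in either line. Their log2 changes lay between -0.11 and 0.02 in AsPC-1 and between -0.12 and 0.01 in PANC-1. HNRNPLL, at the lower end, had an SE of 0.08 in AsPC-1 and 0.07 in PANC-1. HNRNPU overlaps COX20 over 3502 exonic bases on the opposite strand.

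HNRNPUL1 and HNRNPUL2, relatives of HNRNPU with roles in the DNA damage response, went in opposite directions in AsPC-1. HNRNPUL1 was 416 and 395 CPM in the controls and 448.5, 446 and 458 CPM in the siRNA libraries (log2 change 0.14, SE 0.03; edgeR adjusted p = 0.00247), a call lost without control replicate 2 (edgeR adjusted p = 0.0794). TGFB1, which shares 215 exonic bases with it on the opposite strand, was also called higher (0.58). Whether reads were counted by strand is unknown, and the part of such overlaps was not tested. HNRNPUL2 was 73.5 and 70.9 CPM against 63.85, 60.1 and 70.7 CPM (log2 change -0.17, SE 0.06; edgeR adjusted p = 0.0320). Its call was lost in 6 of 13 alternatives, among them without control replicate 1 or 2 (edgeR adjusted p = 0.224 and 0.110) and siRNA replicate 1 or 2 (edgeR adjusted p = 0.0716 and 0.169). Neither was called in PANC-1 (0.04, SE 0.05, and 0.03, SE 0.07).

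**Figure D2:**
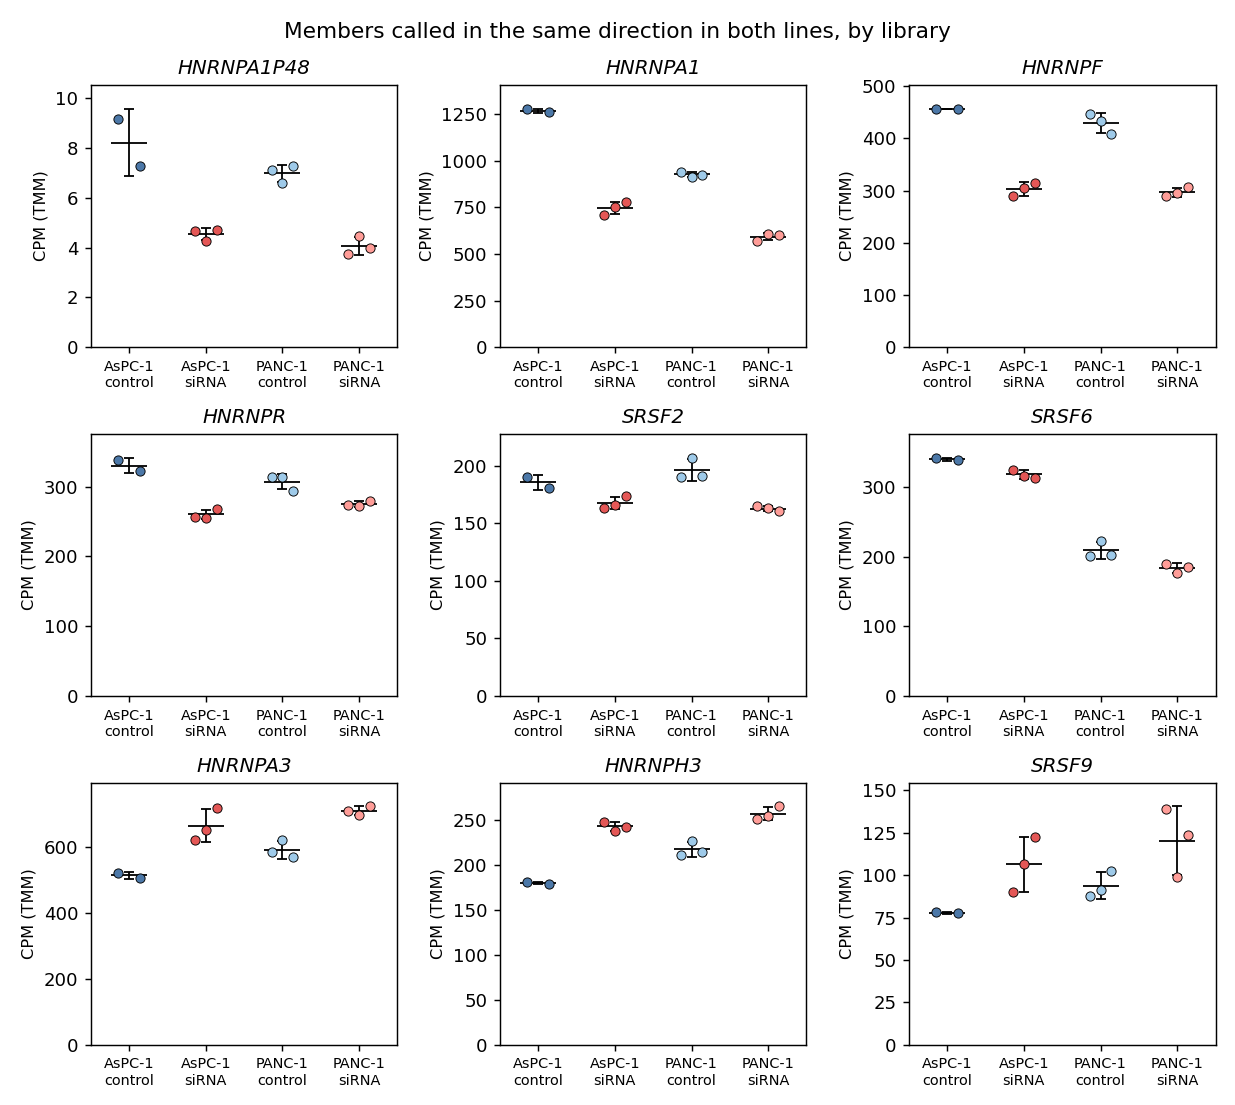
TMM-scaled CPM per library (points), group mean and SD (horizontal and vertical lines) for the 9 members called in both lines, with axes starting at 0. In 8 of the 9 panels no siRNA library overlapped a control library of its line. The genes were chosen by their calls, so this separation is a description, and it was not counted over all genes. SRSF9 overlapped in PANC-1, where the siRNA library at 98.9 CPM lay below the control at 103 CPM.

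Among the SR genes SRSF9 (ENSG00000111786, chromosome 12, 120461668 to 120469793, minus strand), a small SR protein, was the one called higher in both lines. It was 78.3 and 77.5 CPM in the AsPC-1 controls and 90.1, 106 and 123 CPM in the siRNA libraries. In PANC-1 it was 87.6, 91.0 and 103 CPM in the controls and 139, 98.9 and 123 CPM in the siRNA libraries. The siRNA libraries varied more than the controls in both lines, and the PANC-1 groups overlapped. The log2 change was 0.43 in AsPC-1 (SE 0.08; edgeR adjusted p = 9.21e-05) and 0.36 in PANC-1 (SE 0.10; edgeR adjusted p = 0.0387). The PANC-1 call was lost without control replicate 1 (edgeR adjusted p = 0.137), siRNA replicate 1 (0.218) or siRNA replicate 3 (0.109). SRSF9 shares 1729 exonic bases with GATC on the opposite strand, and GATC was not called (0.11 and 0.11).

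SRSF2 (ENSG00000161547, chromosome 17, 76734115 to 76737374, minus strand), the nuclear speckle protein also called SC35, was 190.4 and 181 CPM in the AsPC-1 controls and 163, 166 and 173.5 CPM in the siRNA libraries. In PANC-1 it was 190.5, 207 and 191 CPM against 165, 163 and 160.5 CPM. The siRNA libraries lay below the controls without overlap in both lines. The log2 change was -0.17 in AsPC-1 (SE 0.04; edgeR adjusted p = 0.00264) and -0.27 in PANC-1 (SE 0.05; edgeR adjusted p = 0.00497). In AsPC-1 the call was lost without control replicate 1 (edgeR adjusted p = 0.0828), and in PANC-1 it held in each alternative fit. MFSD11, which shares 1106 exonic bases on the opposite strand, was not called (-0.09 and -0.03).

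SRSF6 (ENSG00000124193, chromosome 20, 43457928 to 43464247, plus strand), a regulator of exon choice in several tissues, had the smallest AsPC-1 change of the 9 genes called in both lines. It was 342 and 339 CPM in the AsPC-1 controls and 326, 316.5 and 314 CPM in the siRNA libraries (log2 change -0.11, SE 0.03; edgeR adjusted p = 0.0127). In PANC-1 it was 202, 223.5 and 203 CPM against 190.4, 177 and 185 CPM (-0.19, SE 0.05; edgeR adjusted p = 0.0492). The groups did not overlap, but the steps were small. Without control replicate 1 or 2 the AsPC-1 call was lost (edgeR adjusted p = 0.0831 and 0.0857), and leaving out any 1 library lost that of PANC-1 (edgeR adjusted p from 0.0518 to 0.175).

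SRSF4, SRSF5, SRSF8 and SRSF11 were called lower in AsPC-1, by 0.15 to 0.17 on the log2 scale, and SRSF1 higher by 0.12, and none of these 5 was called in PANC-1. SRSF4 and SRSF5 are SR proteins with a pair of RNA recognition motifs, SRSF8 is a relative of SRSF2, SRSF11 is an atypical SR protein, and SRSF1 is the founding member, known for its oncogenic activity. Of these, SRSF11 kept its call without any 1 library (main edgeR adjusted p = 0.00220) and lost it in 1 fit over all groups (adjusted p = 0.213). Leaving out control replicate 1 ended the call of SRSF5 (edgeR adjusted p = 0.160), as did for SRSF4 leaving out control replicate 2 or siRNA replicate 2 (0.122 and 0.0517). SRSF8 lost it without any 1 library (edgeR adjusted p from 0.0563 to 0.287), and SRSF1 without control replicate 1, control replicate 2 or siRNA replicate 3 (0.278, 0.0921 and 0.138). With all groups in 1 fit SRSF1, SRSF4, SRSF5, SRSF6 and SRSF8 were not called in AsPC-1 (edgeR adjusted p from 0.0696 to 0.366), and DESeq2 did not call SRSF1, SRSF4 or SRSF8 (adjusted p from 0.0630 to 0.184).

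SRSF3, SRSF7 and SRSF10 were not called in either line. SRSF3 is the smallest SR protein, SRSF7 carries a zinc knuckle, and SRSF10 represses splicing when dephosphorylated. Their log2 changes lay between 0.02 and 0.03 in AsPC-1, with SEs of 0.03 to 0.04, and between -0.08 and -0.02 in PANC-1, with SEs of 0.04 to 0.07. SRSF12 had 11 to 19 counts in each PANC-1 library and a log2 change of 0.02 (SE 0.31).

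Summed over members, the 22 hnRNP genes were 9475 ± 94.6 CPM in the AsPC-1 controls and 9131 ± 299 CPM in the siRNA libraries (SD, n = 2 and 3), 96.4% of control. In PANC-1 they were 8830.0 ± 209.6 and 8519 ± 105 CPM (SD, n = 3 and 3), 96.5% of control. The sum of the 12 SR genes was 98.5% of control in AsPC-1, against 95.25% in PANC-1. For HNRNPA1 alone the shares were 58.9% and 64.0%. In bulk libraries fewer cells of a kind and less RNA per cell cannot be told apart.

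The difference in response between the lines was tested for each member in 1 edgeR fit with an interaction term, in which 4.36% of 16680 genes were called (2.07% higher and 2.28% lower in PANC-1 relative to AsPC-1). Of the 34 members 0 were called, with DESeq2 also at 0. At an unadjusted p under 0.05 there were 4 of the 34 members, HNRNPA0, HNRNPA1, HNRNPH3 and HNRNPR. Over all 16680 genes there were 2813, a larger share. PANC-1 minus AsPC-1 was 0.12 for HNRNPA1 (95% interval from its SE 0.01 to 0.24; edgeR adjusted p = 0.296) and 0.06 for HNRNPF (-0.07 to 0.18; edgeR adjusted p = 0.735). It was 0.19 for HNRNPR (0.06 to 0.31; edgeR adjusted p = 0.101) and -0.19 for HNRNPH3 (-0.32 to -0.07; edgeR adjusted p = 0.101). HNRNPR passed without PANC-1 control replicate 2 (edgeR adjusted p = 0.0192), and HNRNPAB without AsPC-1 siRNA replicate 1 (-0.27; edgeR adjusted p = 0.0450). A member called in AsPC-1 and not in PANC-1 was therefore not shown to respond differently.

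Genes that act with these factors were counted on lists of other pathway members, beside the 32.9% of all genes called in AsPC-1 and 9.08% in PANC-1. Of 15 genes for kinases, phosphatases and methyltransferases of hnRNP and SR proteins, 4 were higher and 2 lower in AsPC-1 (40.0% called), and 0 and 2 in PANC-1 (13.3%). These shares were near those of all genes. SRPK2, a kinase of the arginine/serine domain, was lower in both lines (log2 change -0.32 and -0.38; edgeR adjusted p = 0.00101 and 0.00161), as was the phosphatase subunit PPP1CC (-0.20 and -0.16; edgeR adjusted p = 5.28e-04 and 0.0402). CLK1, a nuclear kinase of SR proteins, was higher in AsPC-1 (0.34; edgeR adjusted p = 3.22e-05), with -0.04 in PANC-1. PRMT1, the main methyltransferase of arginine/glycine stretches, was higher in AsPC-1 (0.22; edgeR adjusted p = 1.45e-04).

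Of 8 nuclear import genes, 2 were higher and 1 lower in AsPC-1 (37.5% called), and 1 and 0 in PANC-1 (12.5%), again near the 32.9% and 9.08% of all genes. TNPO1, transportin 1, the import receptor of HNRNPA1, was higher in AsPC-1 (0.41, SE 0.04; edgeR adjusted p = 1.45e-08) and not called in PANC-1 (0.10; edgeR adjusted p = 0.463). Its difference between lines did not pass the interaction test (-0.32; edgeR adjusted p = 0.0647). KPNB1, importin beta, was higher in both lines (0.24 and 0.22; edgeR adjusted p = 2.98e-06 and 0.00497), and KPNA2, an importin alpha, was lower in AsPC-1 (-0.35).

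Among other splicing regulators, 11 of 44 tested were higher and 11 lower in AsPC-1 (50.0% called, against 32.9% of all genes). In PANC-1 0 of 42 were higher and 4 lower, 9.52% beside 9.08% of all genes. RBFOX2, which recognises a GCATG element beside exons, was lower in both lines (-0.62 and -0.54; edgeR adjusted p = 1.08e-10 and 2.05e-05). It carried 4 copies of CTCATGT in its 3′ UTR, whereas SRPK2, also lower in both lines, carried 0. The part of the word in these changes was not tested. ESRP1, an epithelial splicing regulator, was lower in AsPC-1 (-0.53; edgeR adjusted p = 7.10e-05) and too low to be tested in PANC-1. PCBP1, a relative of HNRNPK, was lower in PANC-1 (-0.36; edgeR adjusted p = 0.00494). MBNL1 was higher in AsPC-1 (0.30), and so was KHDRBS3 (1.10, SE 0.40; edgeR adjusted p = 0.0339).

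In the spliceosome itself, 4 of 24 genes of the U1 and U2 snRNPs and of branch point recognition were higher and 6 lower in AsPC-1 (41.7% called, against 32.9% of all genes), and 0 and 2 in PANC-1 (8.33%, against 9.08%). The SF3A subunits differed in direction. SF3A1 (-0.24 and -0.23) and SF3A3 (-0.22 and -0.31) were lower in both lines, whereas SF3A2 was higher in AsPC-1 (0.24; edgeR adjusted p = 0.00108) and not called in PANC-1 (0.11; edgeR adjusted p = 0.368). U2AF1 was called higher in AsPC-1 (0.72, SE 0.24; edgeR adjusted p = 0.0242), but it has a near-identical copy that can share its reads. Of the 7 Sm core genes, 3 were higher in AsPC-1 (42.9%), led by SNRPG (0.71) and SNRPE (0.25), and 0 were called in PANC-1. Of 23 tri-snRNP genes 6 were higher and 2 lower in AsPC-1 (34.8%, near that of all genes), and 0 and 1 in PANC-1 (4.35%). TXNL4A (0.65) and SNRNP27 (0.37) had the largest rises in AsPC-1, CD2BP2 was lower there (-0.13), and PRPF4 was lower in both lines (-0.24 and -0.27). Of 15 genes of nonsense-mediated decay and the exon junction complex 1 was higher and 1 lower in AsPC-1 (13.3%), and 0 and 1 in PANC-1 (6.67%), both under the shares of all genes. CASC3, of the exon junction complex, was higher in AsPC-1 (0.24). RBM8A, an exon junction core protein, was lower in both lines (-0.37 and -0.24; edgeR adjusted p = 2.06e-05 and 0.0172).

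The control libraries of the lines were compared to ask how the lines differ without MYEOV siRNA. These libraries are the controls of the siRNA comparisons as well, so the comparisons are not independent. Of 34 members 25 were called, 9 higher and 16 lower in PANC-1, at 76.4% of 16182 genes tested (40.3% higher and 36.1% lower). The median log2 change was -0.13 for members and 0.06 for all genes. Of the hnRNP genes 6 were higher and 10 lower, and of the SR genes 3 and 6. With upper-quartile scaling, which moved the values of all genes by 0.08, 11 were higher and 11 lower, and HNRNPA2B1, HNRNPK, HNRNPR, SRSF3 and SRSF7 lost their calls (edgeR adjusted p from 0.111 to 0.591). Leaving out PANC-1 control replicate 2 gave 29 member calls, with 12587 genes called in place of 12370. Leaving out either AsPC-1 control leaves 1 library in that group, and member calls were lost in both of those fits.

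HNRNPL had the largest rise towards PANC-1 of the hnRNP genes, from 239 and 240.5 CPM in AsPC-1 to 362, 344 and 344 CPM in PANC-1 (log2 change 0.52, SE 0.05; edgeR adjusted p = 4.60e-07). SRSF4 was 90.8 and 93.0 CPM in AsPC-1 and 126, 134 and 121 CPM in PANC-1 (0.44, SE 0.07; edgeR adjusted p = 2.67e-05). Both were separated without overlap and, like HNRNPA0 (0.34) and HNRNPH3 (0.25), kept their call in each alternative fit. HNRNPH2, HNRNPA3, HNRNPC and SRSF9 were also higher in PANC-1, by 0.16 to 0.24, and leaving out AsPC-1 control replicate 2 ended each call (edgeR adjusted p = 0.196, 0.104, 0.0981 and 0.0747). HNRNPH2, HNRNPC and SRSF9 lost it without control replicate 1 too (0.0529, 0.0592 and 0.0607).

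SRSF12 was nearly absent from AsPC-1, with 2 counts over both controls, and had 44 counts over the 3 PANC-1 controls. It reached 1 CPM in 3 libraries, all of PANC-1, and so met the rule for members only through that line. Its place among the 9 genes called higher there follows from that choice and is a description.

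HNRNPUL2 was 73.5 and 70.9 CPM in AsPC-1 and 43.7, 43.5 and 38.9 CPM in PANC-1, a log2 change of -0.81 (SE 0.08; edgeR adjusted p = 1.76e-07). SRSF6 was 342 and 339 CPM against 202, 223.5 and 203 CPM (-0.72, SE 0.06; edgeR adjusted p = 2.74e-08). SRSF8 was 63.4 and 66.1 CPM against 42.0, 41.1 and 41.7 CPM (-0.66, SE 0.07; edgeR adjusted p = 8.33e-07). In all 3 the PANC-1 controls lay below the AsPC-1 controls without overlap. HNRNPUL1 (-0.58), SRSF5 (-0.49), HNRNPA1 (-0.48), HNRNPM (-0.33), SRSF10 (-0.30), HNRNPU (-0.25) and HNRNPD (-0.22) were also lower in PANC-1 and kept their calls in each alternative fit. HNRNPAB, HNRNPK, HNRNPR, HNRNPA2B1, SRSF3 and SRSF7 were lower by 0.12 to 0.24, and leaving out AsPC-1 control replicate 1 ended each call (edgeR adjusted p = 0.0629, 0.310, 0.352, 0.227, 0.0996 and 0.265). Leaving out AsPC-1 control replicate 2, PANC-1 control replicate 1 or PANC-1 control replicate 3 also lost those of HNRNPK, HNRNPR and HNRNPA2B1 (edgeR adjusted p from 0.0522 to 0.227), and leaving out PANC-1 control replicate 3 lost that of SRSF7 (0.0759).

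**Figure D3:**
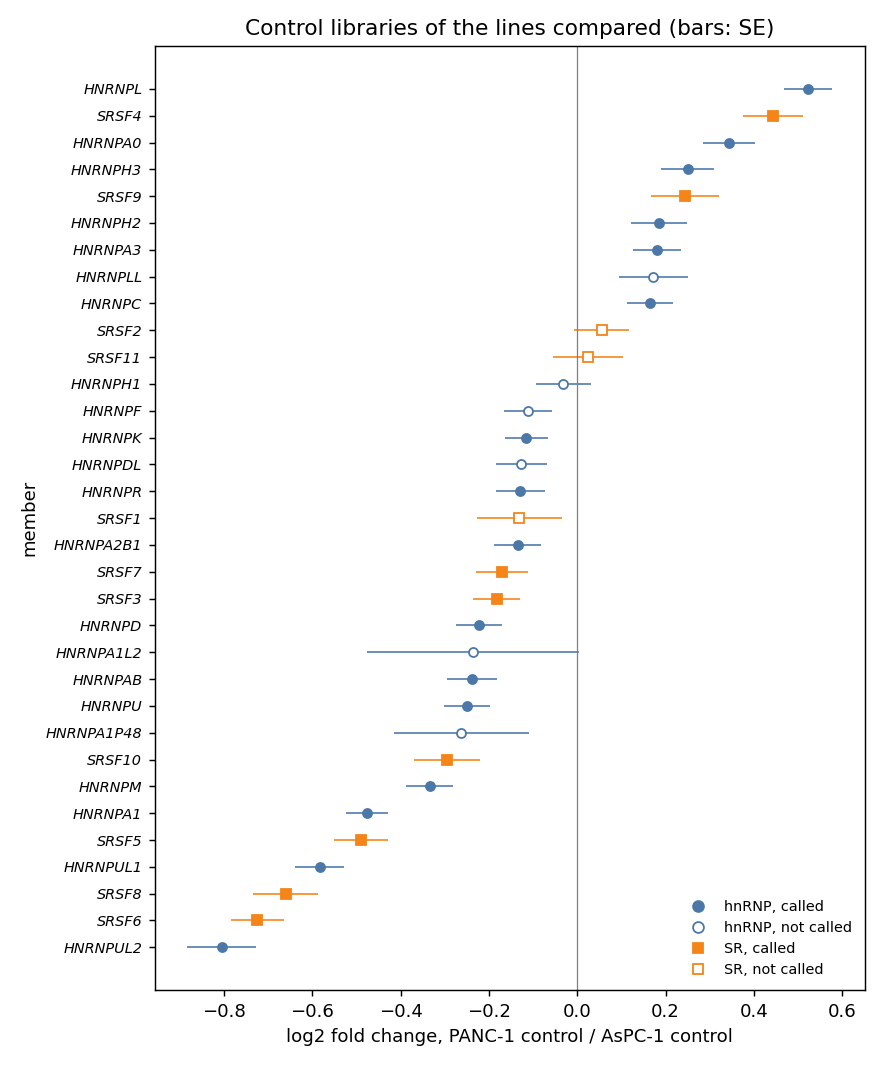
Log2 fold change of PANC-1 control against AsPC-1 control for 33 members (circles hnRNP, squares SR, filled where called, bars standard error). HNRNPL at 0.52 and SRSF4 at 0.44 lie farthest to the right, and HNRNPUL2 at -0.81 and SRSF6 at -0.72 farthest to the left. SRSF12, whose estimate rests on 2 counts in AsPC-1, is not drawn.

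PANC-1 control replicate 2 differed most from its group. Among the 3 PANC-1 controls, 20 members were highest there, 11 in replicate 1 and 3 in replicate 3. This count was not made over all genes, so it is not shown to be particular to members. Higher values in replicate 2 were clearest for SRSF1, SRSF10 and SRSF11. SRSF1 was 129 CPM in that library and 102 and 98.4 CPM in the others. SRSF10 was 204 CPM against 168 and 176 CPM, and SRSF11 was 238 CPM against 195 and 198 CPM. Without that library 7 members in place of 9 were called in the PANC-1 siRNA comparison, 3 higher and 4 lower. Over all genes the count went the other way, to 1712 in place of 1356.

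Levels of different genes were compared as CPM per kilobase of merged exons, which allows only roughly for length. Merged exons join those of all annotated transcripts, and they were 9267 bases in HNRNPA2B1, whose annotated coding transcripts had 1711 to 3664 bases. The ranks below therefore depend on the annotation, and the length of the transcripts expressed was not used. HNRNPA1 was highest in the controls of both lines, at 249 ± 2.0 in AsPC-1 and 182 ± 2.7 in PANC-1 (SD, n = 2 and 3). HNRNPA2B1, HNRNPK and HNRNPAB followed in AsPC-1, at 154 ± 4.2, 151 ± 3.8 and 148 ± 7.2, and they did not differ beyond their spread. In PANC-1 HNRNPA2B1 and HNRNPK followed, at 142 ± 7.0 and 142 ± 0.13, and did not differ beyond their spread. HNRNPF and HNRNPAB came next, at 132 ± 6.0 and 127 ± 3.9, within the spread of each other and farther below HNRNPK than their SDs. In the siRNA libraries HNRNPA1 stood at rank 4 in AsPC-1 (147 ± 6.8) and rank 5 in PANC-1 (117 ± 3.9), behind HNRNPAB, HNRNPA2B1 and HNRNPK. In AsPC-1 the SD range of HNRNPA1 met those of HNRNPK (155 ± 5.1) and HNRNPA2B1 (162 ± 8.7). HNRNPAB there was 173 ± 18.8, so the rank of HNRNPA1 in AsPC-1 is not resolved. In PANC-1 HNRNPA3 also stood above it (118 ± 2.3, within the spread of HNRNPA1).

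The most abundant SR gene per kilobase was SRSF6 in AsPC-1 controls (74.2 ± 0.47) and SRSF2 in PANC-1 controls (65.1 ± 3.2). SRSF6 ranked 8 of 34 members in AsPC-1 and stood at 45.6 ± 2.6 in PANC-1. At the low end were HNRNPLL (7.03 ± 0.013 and 8.05 ± 0.32), HNRNPA1P48 (4.27 ± 0.70 and 3.63 ± 0.18), HNRNPA1L2 (1.96 ± 0.12 and 1.70 ± 0.20) and SRSF12.

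**Figure D4:**
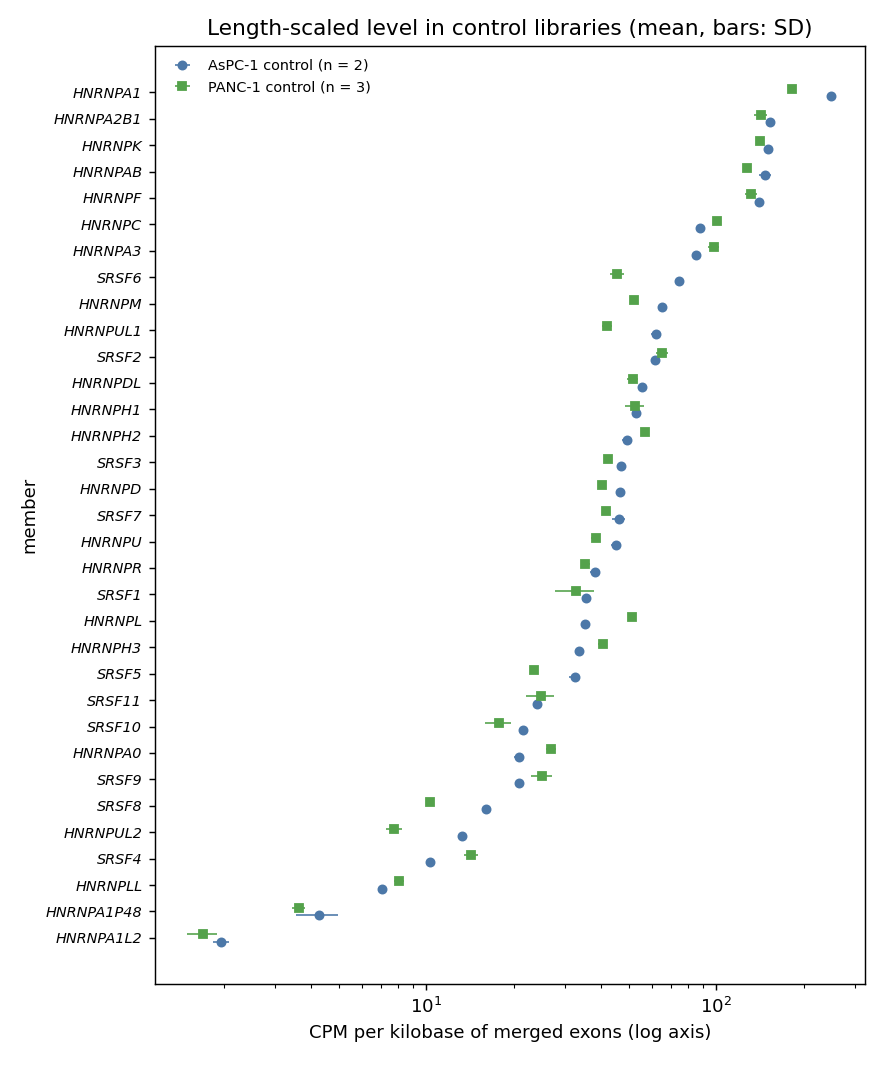
CPM per kilobase of merged exons in control libraries (log axis; mean with SD, circles AsPC-1, n = 2, squares PANC-1, n = 3), ordered by the AsPC-1 level. HNRNPA1 is at the top at 249 and 182, and HNRNPA1L2 at the bottom at 1.96 and 1.70. SRSF12, with a library at 0 counts, is not drawn on the log axis.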

How the data were processed

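Reads were paired and 150 bases long, per the labels' protocols. Each library has 1 table of raw read counts per gene, deposited by the authors without normalization. The submitters' processing notes name HISAT2, HTSeq and hg19 and give no versions. All 58735 identifiers occur in GENCODE 29 (GRCh38), which gave names, positions and transcript sequences; 0 rows lacked a gene. No source used here says whether counting used strand.

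From the counts, edgeR 4.0.16 in R 4.3.3 (filterByExpr, TMM, quasi-likelihood F test, two-sided, Benjamini-Hochberg threshold 0.05) was fitted to each line, to the controls, and to all 4 groups for the difference between lines. SE is the absolute log2 fold change over the square root of F. Fits were tested on simulated data in which only few genes, all well expressed, were changed (67 of 14074 by 0.3 in AsPC-1). A simulated log2 change of 0.3 was recovered for 70.1% of changed genes in AsPC-1, 34.3% in PANC-1 and 41.8% between controls. For the difference between lines it was 29.9%. At 0.6 the shares were 100%, 98.5%, 92.5% and 76.1%, so small changes could be missed. Far more genes were called in the data than were changed in the simulation. Members with low counts were not represented, so recovery in the data may differ. Sequence identity came from BLAST 2.17.0, and other steps used Python 3.11.15. Replicates differed beyond sampling noise, so none were merged. Libraries held 12113093 counts or more, and the SEs carry both counting error and the spread between libraries.

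Members, gene lists and the word CTCATGT were chosen with earlier results of these data known. All members were described, and up to 2 genes called higher and 2 lower were named per list and line, those with the largest changes. Alternatives were RLE and upper-quartile scaling, other low-count filters, DESeq2 1.42.0, the replicate number as a block, mitochondrial genes left out, 1 fit over all groups, and leaving out each library.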

Additional observations from a re-analysis of the deposited data

Results flagged for a closer look

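Among MYEOV and the genes of the other lists used, 8 differed between the lines in the edgeR interaction test, given as PANC-1 minus AsPC-1 on the log2 scale. By list they were 2 of 7 Sm core genes and 2 of 8 ductal carcinoma markers. There was 1 each among 46 other splicing regulators, 23 tri-snRNP genes and 15 genes of nonsense-mediated decay, and 0 on the remaining lists. Over all 16680 genes tested 4.36% were called, and an excess over that share was not tested. MYEOV itself differed by 0.59 (SE 0.10; edgeR adjusted p = 0.00153), with every siRNA library below every control in both lines. SNRPG, of the Sm core, differed by -0.63 (edgeR adjusted p = 8.86e-04), with 0.71 in AsPC-1 and 0.10 in PANC-1. SNRPE, also of the Sm core, differed by -0.45 (edgeR adjusted p = 0.0323), with 0.25 in AsPC-1 and -0.18 in PANC-1. TXNL4A, a tri-snRNP protein, differed by -0.64 (edgeR adjusted p = 0.00188), with 0.65 in AsPC-1 and 0.03 in PANC-1. CASC3, of the exon junction complex, differed by -0.25 (edgeR adjusted p = 0.0454), with 0.24 in AsPC-1 and 0.00 in PANC-1. RNPS1, a splicing activator, differed by -0.25 (edgeR adjusted p = 0.0332), with 0.19 in AsPC-1 against -0.05 for PANC-1. The keratins KRT8 and KRT18, from the ductal carcinoma markers, differed by -0.42 and -0.52 (edgeR adjusted p = 1.25e-04 and 1.39e-05), with -0.01 and 0.17 in AsPC-1 and -0.41 and -0.33 in PANC-1.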

How the results depend on the processing

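No member's call reversed under any alternative run. The calls of 8 of 22 members in AsPC-1, 6 of 9 in PANC-1 and 15 of 25 between controls held throughout. In AsPC-1 the member count of 22 was 16 with DESeq2, 13 when all 4 groups shared 1 fit, and 12 to 19 when 1 library was left out. In PANC-1 the member count was 6 to 7 when 1 library was left out. Between controls it was 21 to 29 when 1 PANC-1 control was left out, with 11696 to 12587 of all genes called in place of 12370. For the difference between lines the member count was 0 to 1 when 1 library was left out. The count of all genes when 1 library was left out ran from 538 to 1712 in PANC-1 and from 305 to 1056 for the difference between lines, against 1356 and 727. Same-numbered libraries did not vary together (correlations -0.04, -0.545 and -0.198 in PANC-1), so the numbers were not taken as pairs. Control and siRNA libraries of PANC-1 with different numbers had correlations from -0.504 to 0.513, and the source of this variation was not tested. The replicate block gave 20 members in AsPC-1, 6 in PANC-1, 20 between controls and 0 for the difference. Among all genes it gave 4260 in AsPC-1, 628 in PANC-1, 11881 between controls and 241 for the difference. The causes of these shifts were not tested, apart from the smaller number of libraries when 1 was left out. Depth limits SRSF12, HNRNPA1L2 and HNRNPA1P48, which have few counts.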
